A study of Homo sapiens with 6 samples.

Results

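The genes described here encode the microtubule lattice of neurons, the proteins that bind it, and the neurofilaments that lie beside it. Members were taken by symbol from the deposited gene table: every alpha-, beta-, gamma-, delta- and epsilon-tubulin gene together with the gamma-tubulin complex genes of the TUBGCP series, the neurofilament genes NEFL, NEFM, NEFH and INA, stathmins 1 to 4, the doublecortin family genes DCX, DCLK1 and DCLK2, the microtubule-associated protein (MAP) genes MAP1A, MAP1B, MAP2, MAP4, MAP6 and MAP7, the growth cone gene GAP43, and the collapsin response mediator genes CRMP1 and DPYSL2 to DPYSL5. This gave 52 of the 18056 genes listed, of which 45 had enough counts to be tested. They were measured by polyA RNA sequencing of human forebrain organoids, which are self-organising aggregates resembling the dorsal forebrain, grown from the established wild-type induced pluripotent stem cell line DYR0100. The 6 libraries form a vehicle group and a group exposed to 5 µM of the amyloid-β peptide Aβ42, with 3 replicates each and 6 days of exposure. All organoids came from this 1 cell line, and the age of the organoids and the form of the peptide are not given in the sources used here. The question was which of these transcripts differ between exposed and unexposed organoids.

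Microtubules are polymers of alpha- and beta-tubulin dimers, and each subunit is encoded by several isotype genes whose products differ mainly in the acidic tail at the end of the protein. Gamma-tubulin and its partners seed new microtubules, structural MAPs and doublecortins stabilise and bundle them in axons and dendrites, and stathmins bind free dimers and promote disassembly. Neurofilaments are the intermediate filaments of axons. Young cortical neurons make large amounts of these transcripts while they migrate and extend processes, and class III beta-tubulin (TUBB3), MAP2 and DCX are widely used as markers of neurons.

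Depth was even, with 16465390 to 16742958 estimated counts in a library, and the scaling factors lay between 0.996 and 1.006. Aβ42 replicate 2 stood apart from its group: its log2 CPM (counts adjusted for sequencing depth) correlated at 0.9931 with the vehicle libraries and at 0.9898 with the other Aβ42 libraries, across genes, which are not independent replicates. The libraries numbered 2 also shared a high summed level of choroid plexus markers (TTR, CLIC6, FOLR1, AQP1, KCNE1B and OTX2), at 7563 TPM in vehicle and 6657 TPM with Aβ42, against 2837 to 3964 TPM in the other 4 libraries. Most of this sum was TTR, with means of 4904 TPM in vehicle and 4330 TPM with Aβ42. TTR, CLIC6, KCNE1B and OTX2 were each highest in replicate 2 of both groups. AQP1 was lower in vehicle replicate 2 (17.3 CPM) than in vehicle replicate 1 (21.9 CPM). FOLR1 was at 2.26 and 2.28 CPM in Aβ42 replicates 2 and 3. Counts of calls are therefore also given without Aβ42 replicate 2 and with the replicate number as a block, and single values where these changed a call. Aβ42 replicate 2 was singled out because it resembled vehicle, so leaving it out tends to widen the differences between groups. Over all genes, calls at an adjusted p under 0.05 (edgeR) went from 0 to 3224 without it. Values from that fit are not independent support. The block assumes a pairing of libraries that the labels do not state. The forebrain label was checked against TBR1 and EMX1, transcription factors of the cortex, which were detected in both groups, TBR1 at means of 228 ± 6.18 and 201 ± 2.41 CPM and EMX1 at 34.6 ± 0.608 and 38.4 ± 3.87 CPM in vehicle and Aβ42 (SD, n = 3 each).

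The tubulin isotype genes are near copies of one another, and this decides how well their reads can be told apart, so the coding ends of the beta-tubulins, the family of TUBB3, are shown first. Each line gives the last 81 coding bases (27 codons) before the stop codon, 5′ to 3′ on the coding strand, all within exon 4 of 4 (GENCODE release 29, GRCh38). Capitals mark bases that differ from TUBB, or have no partner in it, in an alignment of the whole coding sequences. TUBB lies at chr6:30724314-30724394 (plus strand), TUBB2A at chr6:3153866-3153946 (minus), TUBB2B at chr6:3224754-3224834 (minus), TUBB3 at chr16:89935721-89935801 (plus), TUBB4A at chr19:6495167-6495247 (minus), TUBB4B at chr9:137243473-137243553 (plus) and TUBB6 at chr18:12326047-12326127 (plus).
TUBB: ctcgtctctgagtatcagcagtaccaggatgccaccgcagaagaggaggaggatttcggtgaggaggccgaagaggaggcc
TUBB2A: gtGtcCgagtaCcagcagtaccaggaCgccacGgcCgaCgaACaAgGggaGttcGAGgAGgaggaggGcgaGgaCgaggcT
TUBB2B: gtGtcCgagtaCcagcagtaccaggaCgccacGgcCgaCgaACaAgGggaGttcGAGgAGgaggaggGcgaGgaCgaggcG
TUBB3: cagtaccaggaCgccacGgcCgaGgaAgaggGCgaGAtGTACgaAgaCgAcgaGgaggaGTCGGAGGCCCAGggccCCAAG
TUBB4A: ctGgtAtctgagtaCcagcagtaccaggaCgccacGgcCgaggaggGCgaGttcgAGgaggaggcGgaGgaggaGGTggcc
TUBB4B: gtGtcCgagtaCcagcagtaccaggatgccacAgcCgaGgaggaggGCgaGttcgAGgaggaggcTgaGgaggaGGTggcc
TUBB6: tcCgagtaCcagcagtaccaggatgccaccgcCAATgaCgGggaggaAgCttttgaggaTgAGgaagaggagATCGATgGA
In TUBB3, 35 of these 81 bases differed from TUBB or had no partner in it, more than in any other isotype shown, and in TUBB2A and TUBB2B 21 each. Bases without a partner were not counted apart, and TUBB3 has 1350 coding bases where TUBB has 1332. Over the whole coding sequence TUBB2A and TUBB2B were 98.2% identical, whereas TUBB3 was 81.8% identical to TUBB and 87.6% to TUBB2B.

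Among the alpha-tubulins, the coding sequences of TUBA1A and TUBA1B were 97.2% identical and those of TUBA1A and TUBA1C 95.9%, while TUBA4A, at 84.4% identity to TUBA1A, was the most distinct of these 4. Of all windows of 100 bases in the transcript, 54.4% in TUBB2A and 42.4% in TUBB2B also occurred in another member of the family, against 32.1% in TUBA1B, 18.3% in TUBA1A, 11.5% in TUBA1C, 5.15% in TUBB3 and 1.84% in TUBA4A. The deposited counts were not whole in every library for 13 tested members, among them TUBA1A, TUBA1B, TUBA1C, TUBA4A, TUBB2A, TUBB2B, TUBB3 and TUBB6, and reads may have been shared out between genes. TUBB6, TUBB1, TUBD1 and TUBGCP4 were also among the 13, although 0.0% of their windows occurred in another member of the family. Why the counts were not whole was not tested. TUBG1 and TUBG2 shared 14.95% and 13.6% of their windows with each other, and their counts were among those not whole. The split between TUBB2A and TUBB2B, between TUBA1A, TUBA1B and TUBA1C, and between TUBG1 and TUBG2, is therefore uncertain.

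Most members were lower with Aβ42 by small amounts. Of the 45 tested, 33 had a log2 fold change (Aβ42 over vehicle) below 0 and 12 above, with a median of -0.06 against 0.00322 over all 13842 genes tested. Over all genes, 6818 were below 0 and 7024 above. The structural MAPs MAP6, MAP2 and MAP1B and class III beta-tubulin were the clearest of those lower. Stathmin 4, the minor alpha-tubulin TUBA4A and parts of the gamma-tubulin complex were the clearest of those higher. No member had an adjusted p under 0.05 in edgeR's quasi-likelihood test with Benjamini-Hochberg adjustment over all genes (background 0.0% of genes), and the smallest was 0.0684, for MAP6. At an unadjusted p under 0.05, 12 members were lower, or 26.7% of those tested against a background of 11.5%, and 5 were higher, or 11.1% against 12.4%. Leaving out 1 library changed these counts and the background with them. Members lower were 6 on dropping vehicle replicate 2 (13.3% against 6.5% of all genes) and 4 on dropping Aβ42 replicate 1 (8.89% against 7.41%). Members higher were 3 on dropping vehicle replicate 1 (6.67% against 11.3%), 2 on dropping vehicle replicate 3 (4.44% against 9.04%), 3 on dropping Aβ42 replicate 1 (6.67% against 7.67%) and 1 on dropping Aβ42 replicate 3 (2.22% against 7.01%). On the log2(TPM + 1) scale, with limma, 15 members were lower (33.3% against 16.1%) and 1 was higher (2.22% against 7.65%).

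The 3 Aβ42 values lay below all 3 vehicle values for 15 members (33.3%, background 13.4%) and above them for 3 (6.67%, background 13.6%). With the replicate number as a block, 7 members passed at an adjusted p under 0.05: MAP6, MAP1B, MAP2, TUBB3 and GAP43 as lower (11.1%, background 7.05%) and TUBA4A and STMN4 as higher (4.44%, background 7.12%). Without Aβ42 replicate 2, 10 members passed as lower (22.2%, background 11.6%) and 4 as higher (8.89%, background 11.5%). The same 7 genes were among these 14, and the others were MAP7, TUBA1B, TUBB6, TUBB1, DPYSL4, TUBG2 and TUBGCP2. DESeq2 called 5 members (background 5.88%), MAP1B, MAP2, MAP6 and TUBB3 as lower (background 3.07%) and TUBA4A as higher (background 2.81%). A limma-voom fit with sample quality weights called 13 (background 17.8%), 8 as lower (background 9.0%) and 5 as higher (background 8.75%). In bulk samples, fewer cells of a type and less RNA per cell cannot be told apart.

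**Figure D1:**
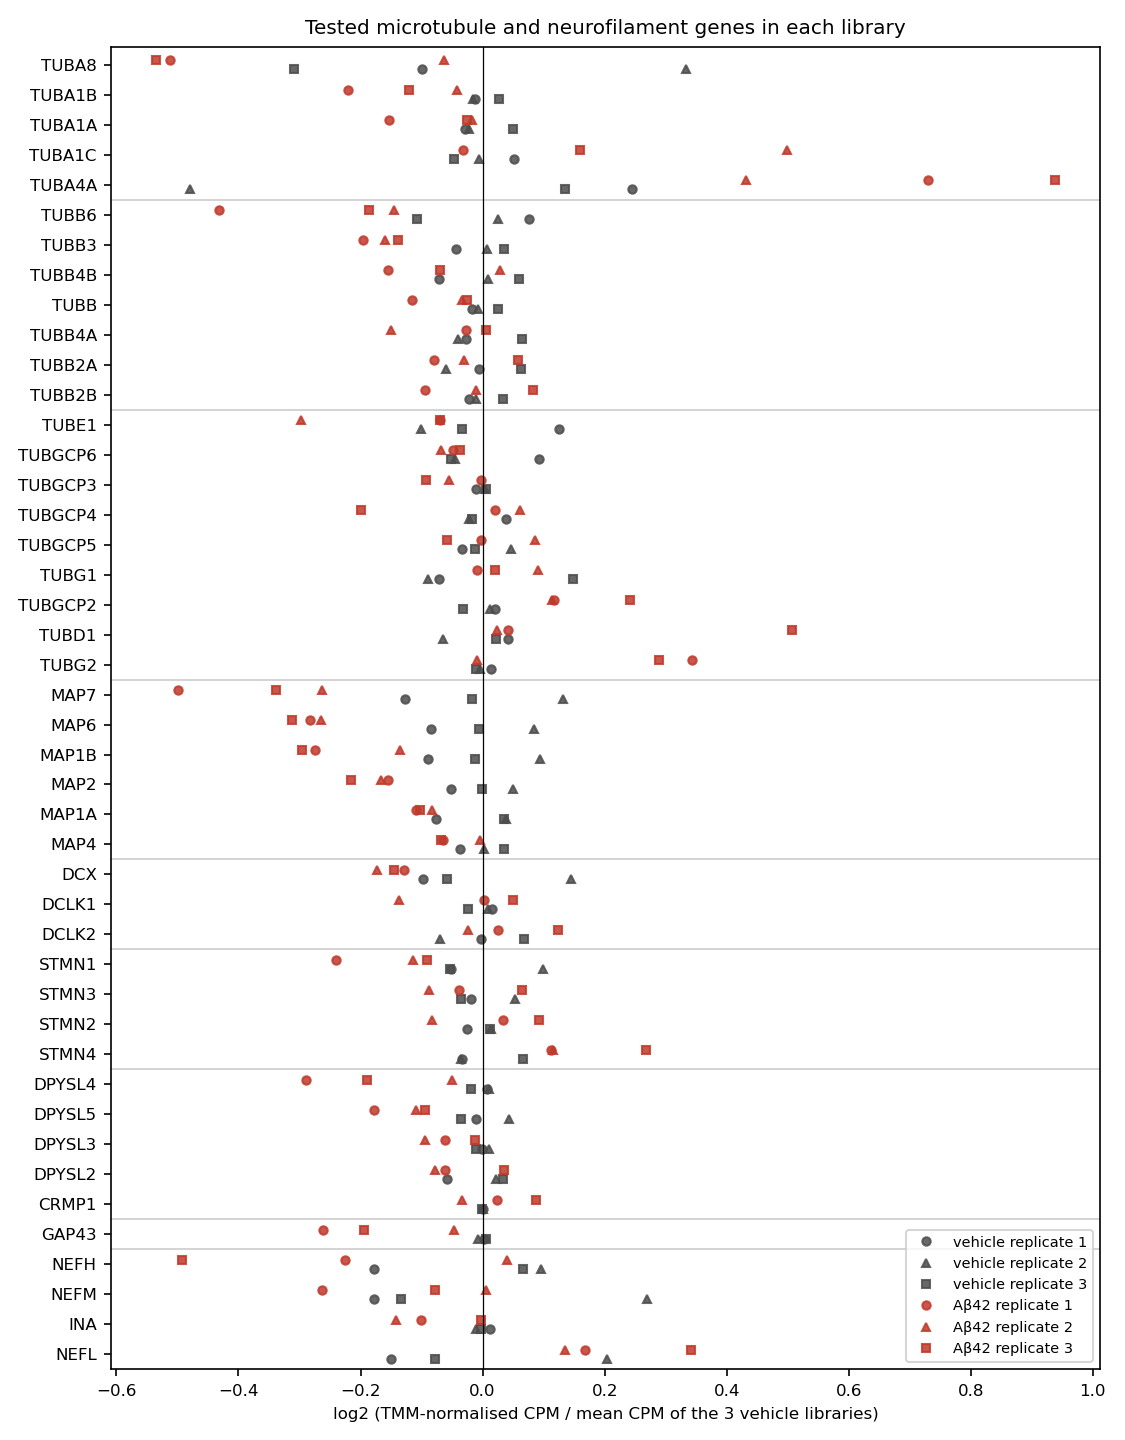
Each row is a tested gene, grouped by family; the horizontal axis is the log2 ratio of its TMM-normalised CPM to the mean of the 3 vehicle libraries, with grey symbols for vehicle and red symbols for Aβ42 libraries (circle, triangle and square for replicates 1, 2 and 3). The red symbols of MAP6, MAP1B, MAP2 and TUBB3 all lie to the left of the grey ones, and those of TUBA4A and STMN4 to the right; TUBB1, near 0 counts, is not drawn.

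All 6 structural MAP genes were lower with Aβ42, with a median log2 fold change of -0.21, where 6818 of all 13842 tested genes were below 0. In 5 of the 6 the groups did not overlap, against a background of 13.4% of genes. MAP6 (Entrez gene ID 4135), which protects microtubules from cold and drug-induced disassembly, was at 233, 262 and 246 CPM in vehicle replicates 1 to 3 and at 203, 206 and 199 CPM in Aβ42 replicates 1 to 3. The Aβ42 values lay within 7 CPM of each other and below every vehicle value, Aβ42 replicate 2 included. The log2 fold change was -0.29 ± 0.05 (SE), a difference of -18.0%, with an adjusted p of 0.0684 in edgeR's quasi-likelihood test and of 0.0017 with the replicate block. Over the 14 other fits its adjusted p ran from 0.000609 to 0.296, and it passed in 5 of them.

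MAP1B (4131), an early axonal MAP and per unit length the most abundant MAP transcript here (779 TPM in vehicle), was at 3468, 3938 and 3658 CPM in vehicle and 3050.2, 3358 and 3004 CPM with Aβ42. Vehicle replicate 2 and Aβ42 replicate 2 were each the highest of their group. The log2 fold change was -0.23 ± 0.06, with an adjusted p of 0.0807, of 0.00484 with the replicate block and of 0.00369 without Aβ42 replicate 2 (edgeR). MAP2 (4133), which marks dendrites and cell bodies, was at 1814, 1945 and 1879 CPM in vehicle and 1687, 1674 and 1619 CPM with Aβ42, without overlap. Its log2 fold change was -0.18 ± 0.05, and its adjusted p was 0.0807, or 0.0228 with the block. MAP7 (9053), which recruits kinesin-1 to microtubules, was a minor transcript at 7.57, 9.06 and 8.17 CPM in vehicle and 5.85, 6.89 and 6.54 CPM with Aβ42 (-0.36 ± 0.13, adjusted p 0.136 by edgeR, 0.0489 without Aβ42 replicate 2). MAP1A, the MAP of mature neurons, differed less (-0.10 ± 0.05, adjusted p 0.234), and MAP4, the MAP made in most cell types, overlapped between groups (-0.05 ± 0.05, 0.553).

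**Figure D2:**
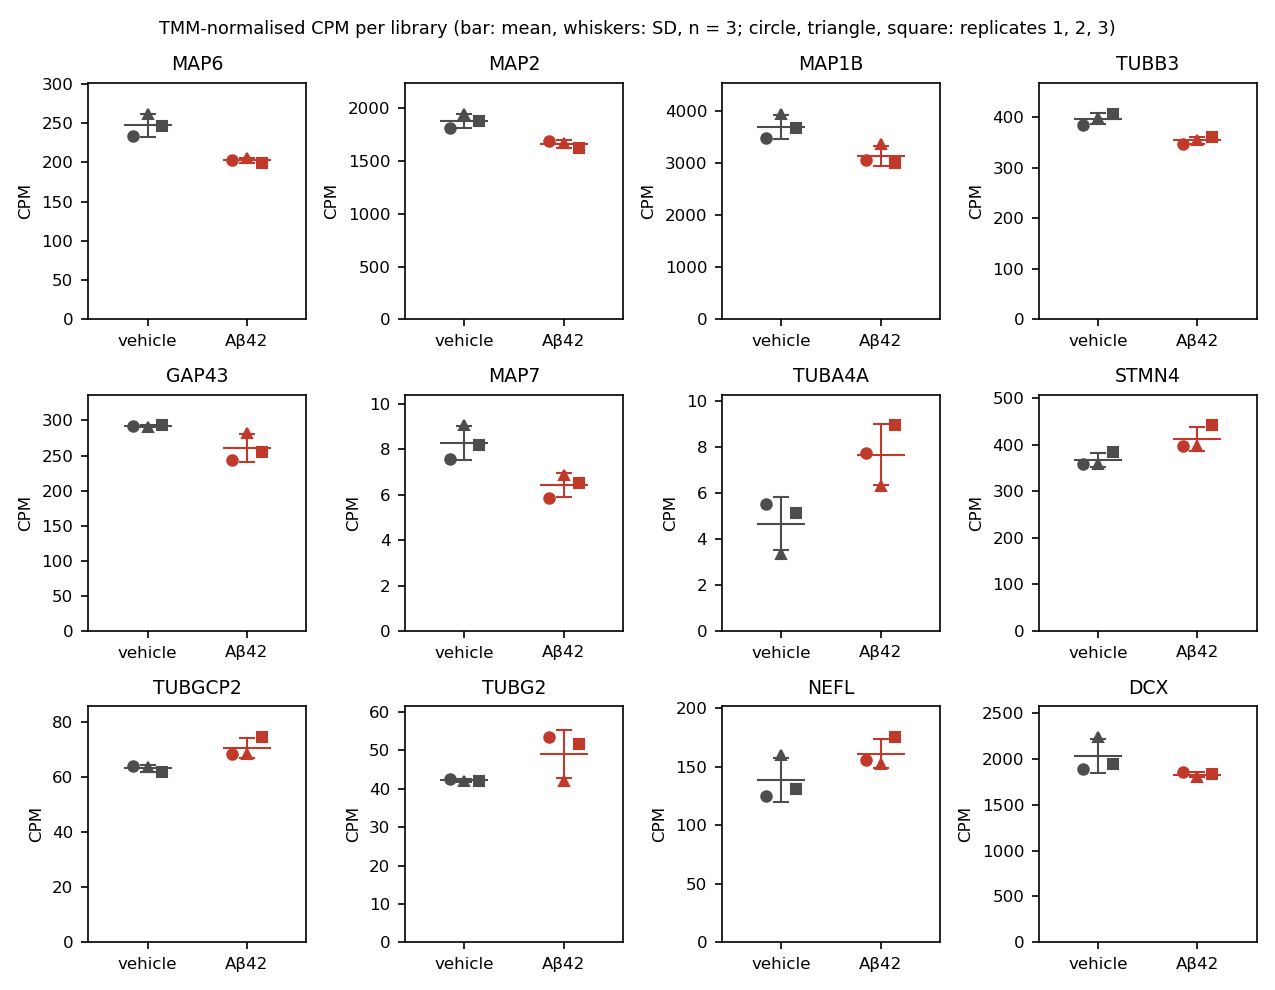
TMM-normalised CPM (vertical axis from 0) of 12 genes in the vehicle and Aβ42 libraries; horizontal bars are means, whiskers are SD (n = 3), and circle, triangle and square are replicates 1, 2 and 3. For GAP43, TUBA4A and TUBG2 the Aβ42 triangle (replicate 2) is the Aβ42 value nearest to vehicle, whereas for TUBB3 it lies between the other Aβ42 values and for DCX below them.

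Among the tubulins, TUBB3 was the abundant isotype with the clearest difference. TUBB3 (10381), the class III beta-tubulin of neurons, was at 385, 399 and 406 CPM in vehicle and 346, 355 and 360.3 CPM with Aβ42. No Aβ42 library reached the lowest vehicle library. The log2 fold change was -0.16 ± 0.05 (-10.8%), with an adjusted p of 0.0856 in edgeR's quasi-likelihood test, 0.0291 with the replicate block and 0.0233 without Aβ42 replicate 2. The other abundant beta-tubulins differed less. TUBB, made in most cells, had a log2 fold change of -0.06 ± 0.05, with the highest Aβ42 library (1700.3 CPM) just below the lowest vehicle library (1709.7 CPM). TUBB2A had a value of -0.02 ± 0.05 and TUBB2B one of -0.01 ± 0.05, and the sign of TUBB2A and TUBB2B turned when vehicle replicate 3 or Aβ42 replicate 1 was left out. TUBB2B (347733), which is prominent in migrating neurons, was at 1086, 1095 and 1129 CPM in vehicle and 1034, 1096 and 1168 CPM with Aβ42, so the Aβ42 libraries spread on both sides of vehicle. TUBB4A and TUBB4B both had -0.06, with standard errors of 0.05 and 0.06. TUBB6, an isotype of low abundance in neurons, was at 24.5, 23.6 and 21.5 CPM in vehicle and 17.2, 21.0 and 20.4 CPM with Aβ42, without overlap (-0.25 ± 0.09, adjusted p 0.153 by edgeR). It was at -0.30 without Aβ42 replicate 2 (0.0398) and at -0.16 without Aβ42 replicate 1. TUBB1, an isotype of platelets, had 8.5 to 11.7 estimated counts in vehicle and 3.19, 11.6 and 0 counts with Aβ42, so its fold change is not interpreted.

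Per unit length, TUBA1A was the most abundant member, at 7241 ± 255 TPM in vehicle and 6682 ± 347 TPM with Aβ42, and ranked 4th of all tested genes by mean TPM. STMN1 (2356 TPM in vehicle), TUBB (1921), STMN2 (1719.7), TUBB2B (1678), TUBA1B (1566), DPYSL3 (1142), CRMP1 (1097) and TUBB2A (1012) followed. The vehicle means of STMN2 and TUBB2B were closer than their summed SDs, so the order of these neighbours is not resolved. TUBA1A (7846), the main alpha-tubulin of postmitotic neurons, was at 3935, 3952 and 4154 CPM in vehicle and 3610.1, 3968 and 3945 CPM with Aβ42, where only Aβ42 replicate 1 lay outside the range of vehicle. Its log2 fold change was -0.06 ± 0.05 (adjusted p 0.475, edgeR). TUBA1B (10376), an alpha-tubulin made in most cells, was at 831, 829.8 and 855 CPM in vehicle and 719.8, 815 and 771 CPM with Aβ42, without overlap (-0.13 ± 0.05, adjusted p 0.183 by edgeR). Without Aβ42 replicate 2 it was at -0.17 (0.0237), and without Aβ42 replicate 1 at -0.08 (0.47).

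The minor alpha-tubulin TUBA4A (7277) showed the opposite difference, and it had the largest positive log2 fold change of any tested member. It is the isotype whose gene does not encode the terminal tyrosine found in most other alpha-tubulins. TUBA4A was at 5.53, 3.34 and 5.12 CPM in vehicle and 7.74, 6.29 and 8.94 CPM with Aβ42, so every Aβ42 library was above every vehicle library. The log2 fold change was 0.71 ± 0.20, or 64.0% higher, with an adjusted p of 0.0891 in edgeR's quasi-likelihood test and of 0.004 with the replicate block. These levels rest on 54.8 to 149.0 estimated counts per library, and at 7.71 TPM in vehicle TUBA4A made up 0.0875% of the alpha-tubulin pool. TUBA1C, at 5.61 to 6.01 CPM in vehicle and 5.67, 8.20 and 6.48 CPM with Aβ42, overlapped (0.23 ± 0.16, adjusted p 0.4), and was at 0.07 without Aβ42 replicate 2. TUBA8, at 1.20 to 2.19 CPM over all libraries, overlapped as well (-0.35 ± 0.27, 0.448), and was at -0.15 without vehicle replicate 2.

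The isotype make-up of the tubulin pools was nearly the same in both groups. TUBA1A held 82.0% ± 0.214 of the alpha-tubulin TPM in vehicle and 82.6% ± 0.337 with Aβ42 (n = 3 each, exact permutation test p = 0.2, 0.6 after adjustment over the 24 shares compared). TUBB3 held 12.1%, 12.4% and 12.3% of the beta-tubulin TPM in vehicle and 11.6%, 11.3% and 11.1% with Aβ42, a difference of -0.953 percentage points in which the groups did not overlap. Its exact two-sided permutation p was 0.1, the smallest that 3 libraries against 3 allow, and 0.4 after adjustment. TUBB (33.7% ± 0.266 in vehicle and 33.6% ± 0.502 with Aβ42) and TUBB2B (29.5% ± 0.069 and 30.4% ± 0.620) held the largest shares. The differences of TUBB2B (0.871 percentage points) and TUBA1B (-0.640) were also without overlap (exact permutation p = 0.1, 0.4 adjusted). The small shares of TUBA4A and TUBA1C were higher without overlap as well. Shares within a pool sum to the whole, so those of TUBB3 and TUBB2B are not independent. The summed TPM of alpha- over beta-tubulins was 1.55 ± 0.00940 in vehicle and 1.52 ± 0.0439 with Aβ42 (exact permutation p = 0.4). The summed alpha- and beta-tubulin level was 14520 ± 445 TPM in vehicle and 13407 ± 603 TPM with Aβ42, a difference of -7.66%, and the groups did not overlap. On the CPM scale the difference was -4.20% and the groups did overlap (exact permutation p = 0.2), and on the log2(TPM + 1) scale the median over every tested gene was itself lower (-0.0401).

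**Figure D3:**
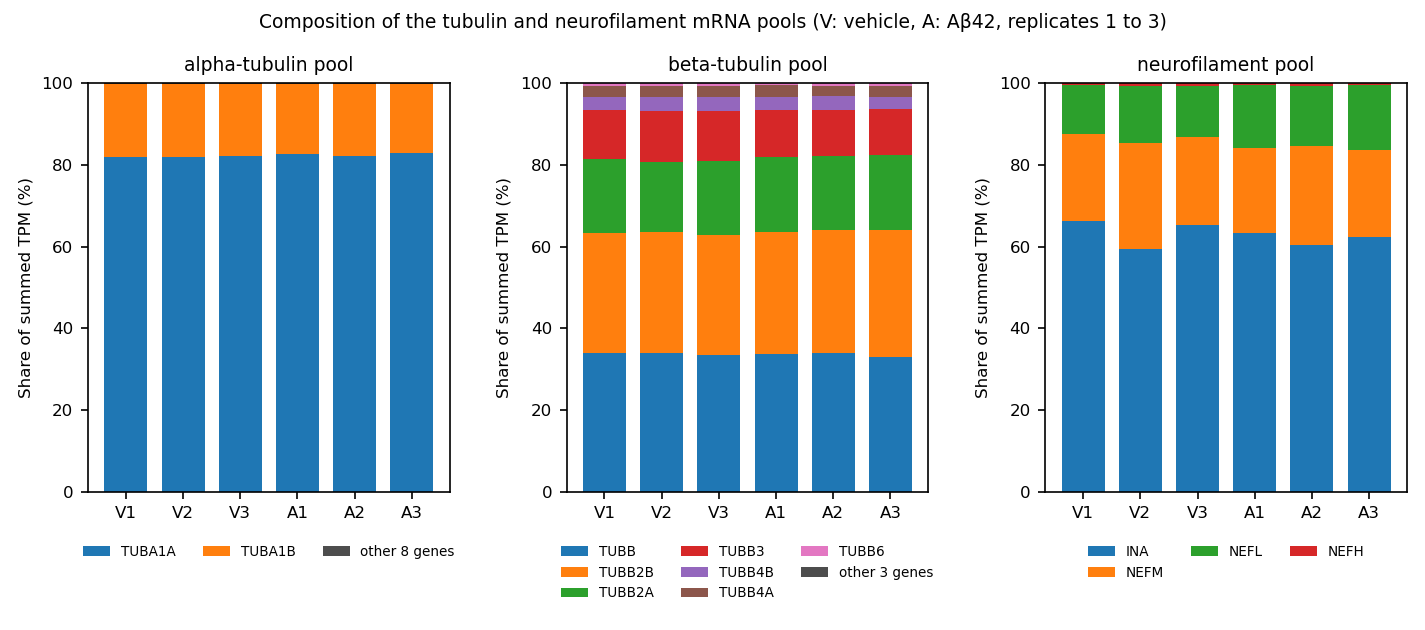
Stacked bars give the share (vertical axis, %) of each gene in the summed TPM of the alpha-tubulin, beta-tubulin and neurofilament pools, for vehicle (V) and Aβ42 (A) replicates 1 to 3. TUBA1A fills 81.9% to 82.9% of the alpha-tubulin bar in every library, TUBB3 is narrower in the 3 Aβ42 bars, and NEFL is wider in them.

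A further 7 members did not pass the filter on low counts. TUBA3C, TUBA3D, TUBA3E, TUBA4B, TUBAL3, TUBB8 and TUBB8B had at most 8 estimated counts in any library, and TUBA4B had 0 counts in all but vehicle replicate 2 (3 counts). A value of 0 still allows 3 counts, or 0.179 CPM, and no fold change is given for these genes.

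The genes that nucleate microtubules were split. TUBGCP2 (10844), a core subunit of the gamma-tubulin ring complex, was at 64.1, 63.7 and 61.8 CPM in vehicle and 68.5, 68.4 and 74.7 CPM with Aβ42, without overlap. Its log2 fold change was 0.16 ± 0.06, with an adjusted p of 0.131 in edgeR's quasi-likelihood test and of 0.0404 without Aβ42 replicate 2. TUBG2 (27175), the second gamma-tubulin gene and the one enriched in brain, was at 42.6, 42.1 and 41.9 CPM in vehicle and 53.5, 41.9 and 51.5 CPM with Aβ42. Aβ42 replicate 2 was at the vehicle level and the other Aβ42 libraries were above it (0.22 ± 0.09, adjusted p 0.163 by edgeR, 0.00304 without that library). TUBG1, the gamma-tubulin of all dividing cells, had a log2 fold change of 0.03 ± 0.08, and the split of reads between TUBG1 and TUBG2 is uncertain. The other ring complex subunits, TUBGCP3, TUBGCP4, TUBGCP5 and TUBGCP6, lay between -0.05 and 0.01 with adjusted p-values of 0.599 to 0.948. TUBE1 and TUBD1, the epsilon- and delta-tubulins of centrioles, had log2 fold changes of -0.14 ± 0.09 and 0.21 ± 0.18. TUBE1 was at -0.07 without vehicle replicate 1 or Aβ42 replicate 2, and TUBD1 at 0.03 without Aβ42 replicate 3.

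Stathmins went in different directions. STMN4 (81551), a neuron-specific stathmin, was at 358, 358 and 384 CPM in vehicle and 396, 397 and 441 CPM with Aβ42, and the groups did not overlap. The log2 fold change was 0.17 ± 0.06 with an adjusted p of 0.12 in edgeR's quasi-likelihood test, 0.0283 with the replicate block and 0.0259 without Aβ42 replicate 2. STMN1 (3925), which is also made in progenitors and dividing cells, was at 1047, 1162 and 1046 CPM in vehicle and 919, 1002 and 1019 CPM with Aβ42 (-0.15 ± 0.06, adjusted p 0.165), without overlap, and its difference was -0.09 without vehicle replicate 2. On the TPM scale the ratio of STMN4 to STMN1 was 0.199, 0.180 and 0.213 in the vehicle libraries and 0.253, 0.232 and 0.254 in those with Aβ42 (exact permutation p = 0.1, the smallest possible, and 0.167 adjusted over 5 ratios). In TPM, STMN4 was higher and STMN1 lower with Aβ42, each without overlap. Their ratio therefore had to separate the groups, and its p adds nothing to the single genes. STMN2 (11075), which supports axon growth and maintenance, was at 1097, 1128 and 1126 CPM in vehicle and at 1143, 1055 and 1190.4 CPM with Aβ42. The Aβ42 libraries lay above, below and above the range of vehicle (0.02 ± 0.05, adjusted p 0.878). STMN3 had a log2 fold change of -0.02 ± 0.05.

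Of the doublecortins, DCX (1641), the microtubule stabiliser of migrating neurons, was at 1892, 2237 and 1944 CPM in vehicle and 1852, 1795 and 1830.3 CPM with Aβ42. The groups did not overlap, but vehicle replicate 2 lay well above the other vehicle libraries, and without it the log2 fold change went from -0.15 ± 0.06 (adjusted p 0.182, edgeR) to -0.07. Its relatives DCLK1 (-0.03 ± 0.05) and DCLK2 (0.04 ± 0.06) overlapped between groups, and DCLK1 was at 0.03 without Aβ42 replicate 2. GAP43 (2596), a growth cone protein of extending axons, was at 292, 291 and 293 CPM in vehicle and 244, 283 and 255 CPM with Aβ42. Its vehicle values lay within 3 CPM of each other, and Aβ42 replicate 2 was again the Aβ42 library nearest to them. The log2 fold change was -0.16 ± 0.06, with an adjusted p of 0.124 in edgeR's quasi-likelihood test, 0.0449 with the replicate block and 0.00406 without Aβ42 replicate 2.

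Collapsin response mediators, which carry guidance signals to the cytoskeleton by binding tubulin, had log2 fold changes below 0 in 4 of 5 cases. Over all tested genes, 6818 of 13842 were below 0. DPYSL5 (56896) was at 690.0, 717 and 679 CPM in vehicle and 614, 644 and 651 CPM with Aβ42 (-0.13 ± 0.05, adjusted p 0.143, edgeR). DPYSL4 was at 84.3, 84.5 and 82.8 CPM in vehicle and 68.7, 81.1 and 73.5 CPM with Aβ42 (-0.17 ± 0.06, 0.139, and 0.00759 without Aβ42 replicate 2). Both showed no overlap, as did DPYSL3 (1809), at 2225, 2242 and 2209.8 CPM against 2132, 2084 and 2208 CPM, where the gap between groups was under 3 CPM (-0.06 ± 0.04, 0.461). The background for values wholly below vehicle was 13.4% of all tested genes. DPYSL2, the family member best known for axon specification, and CRMP1 (1400) overlapped between groups, with log2 fold changes of -0.03 ± 0.05 and 0.03 ± 0.05. CRMP1 was at 1209, 1208 and 1207 CPM in vehicle and 1228, 1180.3 and 1284 CPM with Aβ42, so its vehicle libraries were far closer together than the Aβ42 libraries.

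Neurofilament subunits differed among themselves. NEFL (4747), the light chain on which the filament is built, was at 125, 159 and 131 CPM in vehicle and 156, 152 and 175 CPM with Aβ42. Vehicle replicate 2 lay above Aβ42 replicates 1 and 2, and the other vehicle libraries below all of them (0.22 ± 0.09, adjusted p 0.203 by edgeR, 0.128 with the replicate block), and without vehicle replicate 2 the difference was 0.33. NEFM (4741), the middle chain, was at 186, 254 and 192 CPM in vehicle and 175, 211 and 199.6 CPM with Aβ42 (-0.11 ± 0.13, 0.645), and its sign turned to 0.05 without vehicle replicate 2. INA (9118), alpha-internexin, the early neuronal filament protein, was at 620.3, 611 and 614 CPM in vehicle and 574, 558 and 614 CPM with Aβ42 (-0.08 ± 0.05, 0.337). NEFH, the heavy chain of mature axons, was low, at 5.22 to 7.84 CPM (-0.21 ± 0.16), and at -0.35 without Aβ42 replicate 2 and -0.09 without Aβ42 replicate 3.

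Within a library the ratio of NEFL to NEFM, which was not planned, separated the groups where the single genes did not. On the TPM scale the vehicle libraries had ratios of 0.569, 0.535 and 0.577 and the Aβ42 libraries 0.740, 0.617 and 0.750, and every Aβ42 library was above every vehicle library (exact permutation p = 0.1, the smallest possible, 0.167 adjusted over 5 ratios). Per unit length INA made up 63.7% ± 3.72 of the neurofilament pool in vehicle and 62.0% ± 1.38 with Aβ42. NEFL held 12.0%, 13.9% and 12.5% in vehicle and 15.4%, 14.8% and 16.0% with Aβ42 (exact permutation p = 0.1, 0.4 adjusted over 24 shares), and NEFM held 22.9% ± 2.71 and 22.0% ± 1.73 (p = 0.6).

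Fold change ran with transcript length in the whole table, and the MAP genes are long. Length was ranked by the reads that make up 1 TPM, in 10 equal classes from short to long. The median over all tested genes went from a log2 fold change of 0.06 in the shortest class to -0.04 in the longest, which holds MAP1A, MAP1B, MAP2, DCX and DCLK1. After the median of its own class was subtracted, MAP1B was at -0.19, MAP2 at -0.14 and DCX at -0.11. MAP6 lay in class 6 and was at -0.28, TUBB3 in class 2 at -0.20, GAP43 in class 2 at -0.20, STMN4 in class 3 at 0.14 and TUBA4A in class 2 at 0.68. The median over the 45 tested members was -0.05 on this scale. The part of length in these differences was not tested.

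**Figure D4:**
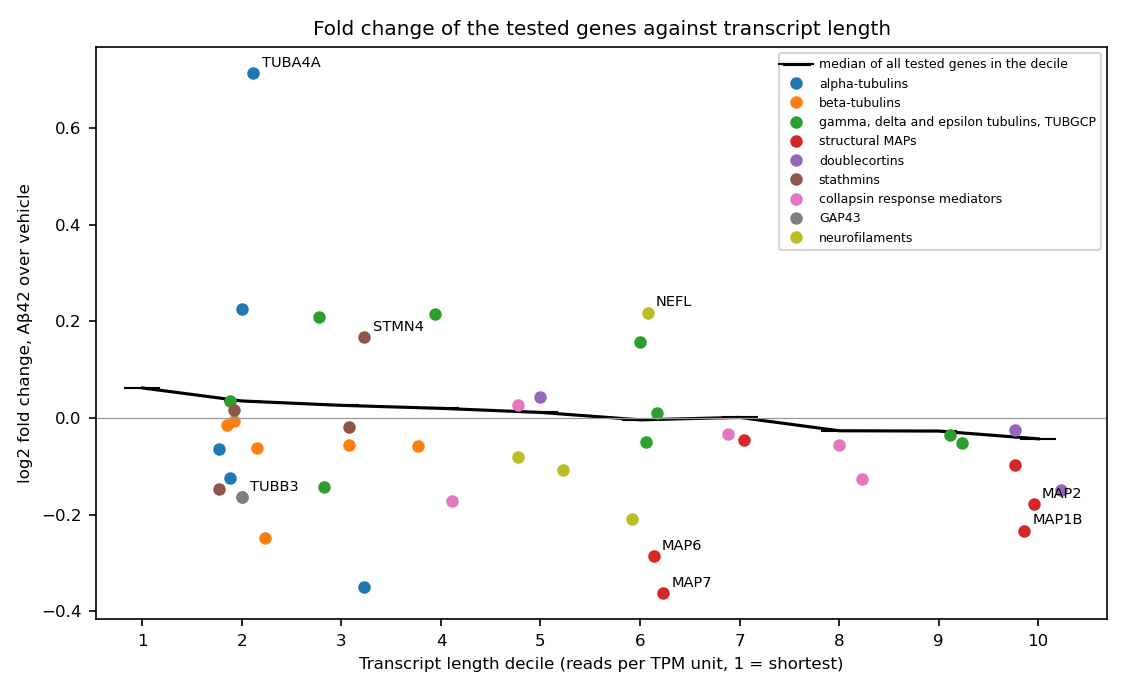
Log2 fold change of Aβ42 over vehicle (vertical axis) for each tested gene except TUBB1, against its transcript length class (horizontal axis, 1 shortest to 10 longest, points spread sideways within a class); the black line joins the medians of all tested genes in each class. The line slopes from 0.06 to -0.04, and MAP6, MAP1B, MAP2 and TUBB3 lie below it while TUBA4A, NEFL and STMN4 lie above it.

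Other genes of the microtubule system were counted from lists that exclude the members above, at an unadjusted p under 0.05 in the same edgeR fit, where the background is 12.4% higher and 11.5% lower. None of the genes named below had an adjusted p under 0.05 in that fit. Calls with the replicate block (adjusted p under 0.05, background 7.12% higher and 7.05% lower) and without Aβ42 replicate 2 (11.5% and 11.6%) follow each count. Genes that bind microtubule ends or anchor microtubules had 0 of 23 higher and 8 lower, with 0 and 3 under the block and 0 and 7 without that library. The smallest p-values were those of GTSE1, which acts in mitosis (-0.66), and MACF1, which links microtubules to actin (-0.28). Mitotic spindle kinesins and assembly factors had 2 of 25 higher and 17 lower (block 1 and 14, without that library 1 and 15), led by KIF4A (-0.69) and KIF23 (-0.58). Partners of the gamma-tubulin complex had 0 of 9 higher and 2 lower (block 0 and 1, without that library 0 and 3), namely AKAP9 (-0.37) and CEP192 (-0.15). Axon growth and actin partner genes had 0 of 18 higher and 6 lower (block 0 and 5, without that library 1 and 6), led by MARCKSL1 (-0.24) and MARCKS (-0.31), substrates of protein kinase C at the membrane.

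Tubulin folding genes had 4 of 22 higher and 2 lower (block 3 and 2, 4 and 2 without Aβ42 replicate 2), with PFDN5, a prefoldin subunit, at 0.26. The lower counts include TBCK (-0.30), a TBC domain kinase that shares only the letters of its symbol with the tubulin cofactors. The other gene lower in each of these fits was TBCD (-0.17), which is a tubulin cofactor. Tubulin modifying enzymes had 3 of 23 higher and 1 lower (block 0 and 1, without that library 2 and 0), with the tubulin ligase-like enzymes TTLL7 at -0.21 and TTLL12 at 0.19. Severing enzymes had 1 of 8 higher and 2 lower (block 0 and 1, without that library 1 and 1), with SPAST, spastin, at -0.19 and FIGN, fidgetin, at -0.29. Neuronal kinesins had 3 of 23 higher and 1 lower (block 1 and 1, without that library 2 and 1), with KIF3B at -0.14 and KIF17, a dendritic motor, at 1.09, from means of 1.27 ± 0.312 and 2.72 ± 1.23 CPM in vehicle and Aβ42. Dynein and dynactin had 3 of 19 higher and 2 lower (block 2 and 2, without that library 3 and 4), with the cargo adaptor BICD1 at -0.24 and the intermediate chain DYNC1I1 at 0.45. Other microtubule-associated proteins had 3 of 30 higher and 2 lower (block 3 and 2, without that library 6 and 2), led by GABARAPL1 (0.33), which also acts in autophagy, and EML2 (0.58). Other intermediate filaments had 1 of 10 higher and 2 lower (block 0 and 2, without that library 1 and 3), with LMNB1, a nuclear lamin, at -0.46 and PRPH, peripherin, at means of 0.566 ± 0.0688 and 1.14 ± 0.414 CPM in vehicle and Aβ42.

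Cell type markers were counted in the same way. Neuronal markers outside the cytoskeleton (SYT1, SNAP25, RBFOX3 and others) had 1 of 12 higher and 3 lower (block 0 and 1, 2 and 1 without Aβ42 replicate 2), a median log2 fold change of 0.03 and summed levels of 2089 to 2131 TPM in vehicle and 1945 to 2192 TPM with Aβ42. The smallest p-values among them were those of ELAVL4 (-0.31) and MYT1L (-0.14). Proliferation markers had 0 of 10 higher and 8 lower (block 0 and 8, without that library 0 and 9), with summed levels of 446 to 531 TPM in vehicle and 306, 405 and 286 TPM in Aβ42 replicates 1 to 3 (CENPE -0.51, NUSAP1 -0.51). Intermediate progenitor markers had 0 of 9 higher and 8 lower (block 0 and 7, without that library 0 and 7), at 391 to 443 TPM in vehicle and 272 to 335 TPM with Aβ42 (PPP1R17 -0.90, NHLH1 -0.76). NEUROG2 was at 0.04. This list includes ELAVL2 (-0.29), whose relatives ELAVL3 and ELAVL4 were counted with the neuronal markers. ELAVL2 had means of 111 TPM in vehicle and 87.9 TPM with Aβ42, a large part of the summed level. The part of proliferating cells and intermediate progenitors in the differences of TUBA1B, STMN1 and the MAP genes was not tested.

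Radial glia markers had 1 of 10 higher and 3 lower (block 0 and 3, 1 and 3 without Aβ42 replicate 2), at 8360 to 8901 TPM in all libraries (HOPX -0.45, FABP7 0.14). Astrocyte markers had 1 of 6 higher and 1 lower (block 0 and 2, without that library 0 and 1), at 163 to 212 TPM (S100B -1.25, ALDH1L1 0.33). Forebrain markers had 0 of 6 higher and 1 lower (block 0 and 1, without that library 1 and 1), with TBR1 at -0.18 and EMX1 at 0.15. Choroid plexus markers had 0 of 6 on either side, also without that library, but 2 passed as lower with the block, OTX2 (-0.66, adjusted p 0.00612) and CLIC6 (-0.57, 0.000309). Mesenchyme markers had 0 of 4 on either side, also without that library, while DCN, decorin (-1.17), passed as lower with the block at an adjusted p of 2.28e-06, the smallest of any gene in that fit, and PDGFRB was at 0.18. They summed to 13.9 to 32.0 TPM, with COL1A1 at 1.03 ± 0.541 CPM in vehicle, so their defining collagens were near 0.

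**Figure D5:**
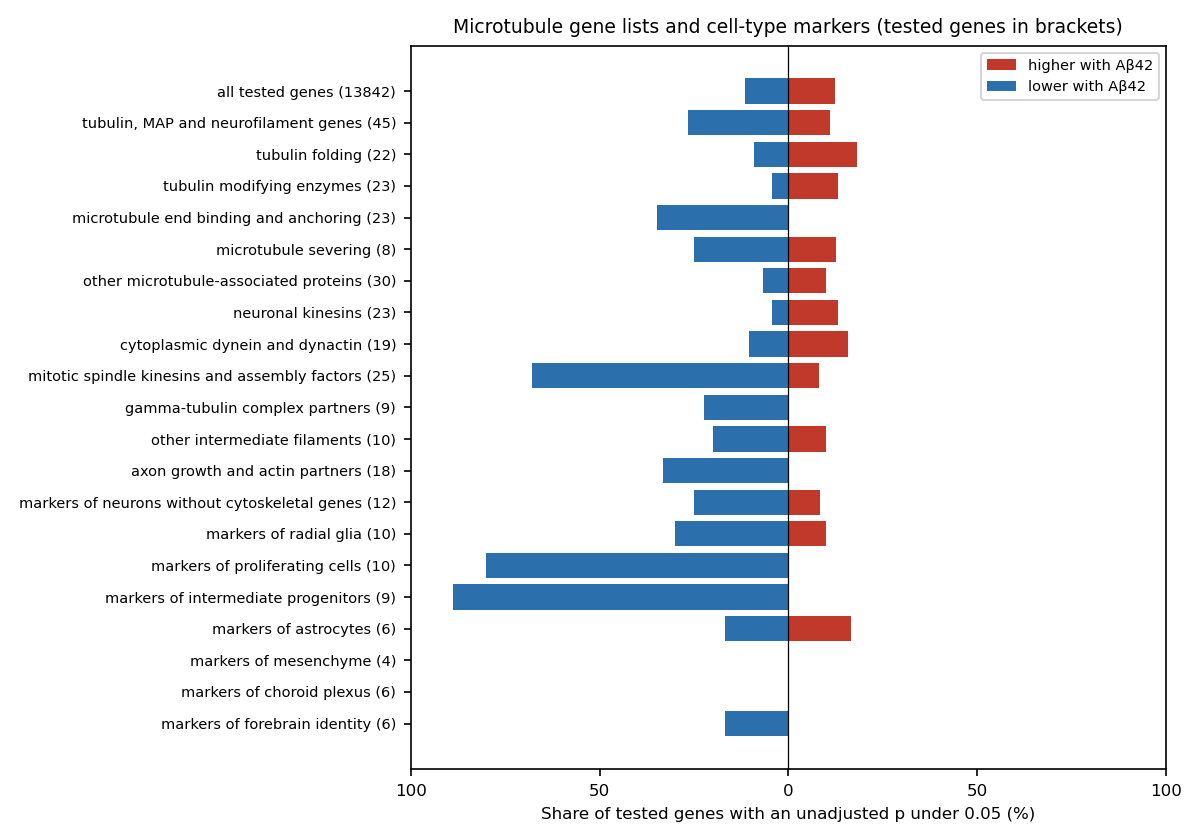
For each gene list (number of tested genes in brackets) the bars give the share of tested genes (horizontal axis, %) with an unadjusted edgeR p under 0.05 that were higher (red, to the right) or lower (blue, to the left) with Aβ42. The members described here show 26.7% lower and 11.1% higher, against 11.5% and 12.4% of all tested genes, and the longest bars are the lower shares of intermediate progenitor, proliferation and mitotic spindle genes.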

How the data were processed

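PolyA RNA of 6 organoid libraries was sequenced from stranded libraries amplified by PCR, per the labels' protocols. The submitters' processing notes list FastQC, STAR 2.7.11b, featureCounts 2.0.6 and GRCh38; the annotation, the strand setting and the source of the TPM values are not given in the sources used here. The authors deposited 1 table with, per the file headers, a read count and a TPM per gene and library. Between 86.9% and 87.5% of the counts were whole, so the deposited numbers were taken as estimated counts and rounded. The deposited TPM values, scaled for length by the authors, were used only to compare genes, for shares and ratios, and in 2 alternative fits.

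Genes were kept by filterByExpr (13842 of 18056), scaled by TMM and tested with edgeR 4.0.16's quasi-likelihood test (robust, no block, two-sided, R 4.3.3), with Benjamini-Hochberg adjustment over all tested genes and a threshold of 0.05; the fit was tested on simulated data. Standard errors are the size of the log2 fold change over the square root of F. Shares and ratios were compared by exact permutation. Alternatives used DESeq2 1.42.0, limma 3.58.1 on log2 TPM, quality weights, other scalings, no filter, a block, and each library left out. Of the shares and ratios, those planned were the TUBA1A, TUBB3 and NEFM shares and the alpha-to-beta tubulin ratio. The other shares and ratios were not planned, and subtracting length class medians was chosen after seeing the data.

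Deviations from group means correlated between libraries of the same replicate number at 0.181, 0.388 and 0.129 (12186 genes averaging 50 counts or more). Each exceeds 0.1, so a shared number was treated as a pair, on the evidence of the data and not of the labels. These correlations run across genes, which are not independent replicates, and those between unlike numbers are not given here. The pairing is therefore an assumption of the block fit. The design text calls the replicates independent. Counts of any 2 libraries differed by more than sampling noise (chi-square per gene 3.16 to 21.1).

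The members and the lists were chosen with earlier results of these data known. Named in full whatever their result were TUBA1A, TUBB3, TUBB2B, NEFL, NEFM, INA, STMN1, STMN2, DCX, DCLK1, MAP1B, MAP2, GAP43, CRMP1 and DPYSL3, then the 6 members with the smallest p in each direction, and 2 genes per list. Coding sequences and coordinates are those of GENCODE release 29 (GRCh38), 1 transcript per gene.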

Additional observations from a re-analysis of the deposited data

How the results depend on the processing

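The median log2 fold change of the members stayed below 0 in every fit tried, from -0.07 to -0.04 when 1 library was left out, and was -0.11 on both TPM scales, where the median of all genes was also lower (-0.0401 and -0.0434). Members at an adjusted p under 0.05 numbered 0 under RLE and upper-quartile scaling and on both TPM scales. With no filter on low counts, 1 of 52 passed (MAP6), against 360 of 17374 genes. Of 45 members, 5 passed with DESeq2, 13 with quality weights and 7 with the replicate block. The background was 814 (5.88%), 2457 (17.8%) and 1962 (14.2%) of 13842 genes. Leaving out 1 library gave 0 to 14 of 45 members and 0 to 3224 genes (at most 23.1%), with calls only without Aβ42 replicate 2. The unadjusted count of members higher was 1 on log2(TPM + 1) (2.22%, all genes 7.65%) and 1 on log2(TPM + 0.1) (2.22%, all genes 7.61%). Over the fits leaving out 1 library it ran from 1 to 4 (2.22% to 8.89%), while 978 to 2583 of all genes were higher (7.01% to 18.5%). That of members lower ran over these fits from 4 to 13 (8.89% to 28.9%), while 893 to 2587 of all genes were lower (6.4% to 18.5%). The cause of these changes was not tested.

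Of 675 alternative values of the 45 genes, 40 passed where the main value did not, and 32, in 11 genes, had the opposite sign. On the TPM scales (+ 1 and + 0.1) these were CRMP1 (-0.0196 and -0.0196), DCLK2 (-0.0298 and -0.0301), TUBG1 (-0.0173 and -0.0176), TUBGCP5 (-0.0446 and -0.0469) and STMN2 (-0.0362 and -0.0362). These scales lower all genes together: with the median of all genes subtracted, CRMP1 was at 0.0205 and 0.0237, DCLK2 at 0.0103 and 0.0133, TUBG1 at 0.0227 and 0.0257, STMN2 at 0.00389 and 0.00716, and TUBGCP5 at -0.0045 and -0.00351. With quality weights they were TUBB2B (2.21e-05), DCLK1 (0.00927), TUBGCP5 (-0.014) and STMN3 (0.0123), and with upper-quartile scaling TUBB2B (0.00966). With length class medians subtracted they were DCLK1 (0.0175), TUBG1 (-0.00035) and STMN2 (-0.0191). Leaving out 1 library turned the sign within -0.0543 to 0.018 for TUBB2A, -0.0516 to 0.038 for TUBB2B, -0.00461 to 0.056 for CRMP1, -0.0653 to 0.0261 for DCLK1, -0.00832 to 0.116 for TUBG1, -0.0857 to 0.0405 for TUBGCP4, -0.0305 to 0.042 for TUBGCP5, -0.189 to 0.0485 for NEFM, -0.0237 to 0.0624 for STMN2 and -0.0627 to 0.0143 for STMN3. None of these genes passed in any fit.

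The difference in the TUBB3 share of beta-tubulin TPM (-0.953 percentage points) ran from -1.08 to -0.834 when 1 library was left out, and paired by replicate number (replicate block) its exact p was 0.25, the smallest possible. The NEFM share of the neurofilament pool ran from -1.86 to 0.681, the positive value being without vehicle replicate 2. With the block, no other member's call changed than the 7 given in the report. Genes under about 10 CPM, such as TUBA4A, TUBA1C, MAP7 and NEFH, are those where counting limits the precision most.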
